A study of Mus musculus with 33 samples.

Results

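The active promoter H3K4me3 domains of WT mouse embryonic stem cells (mESC) were those domains of the WT mESC H3K4me3 list that were shorter than 30 kb, that overlapped no WT mESC H3K27me3 domain, and that lay within 2 kb of the start of a protein-coding gene in the GENCODE vM1 annotation of mm9. In all, 5173 of 15272 domains met the rule (33.9%). The domains were thus chosen by measured values of WT mESC, their length, the absence of H3K27me3 and the distance to a start, and these are given only as a description. "Active" is a name for this chromatin state: transcription was not measured in the lists used here.

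Chromatin immunoprecipitation and sequencing (ChIP-seq) was done on WT and Uhrf1 knockout (KO) E14 mESC and on embryoid bodies (EBs), spheroids in which stem cells differentiate, at weeks 1, 2 and 3. The mESC were kept in serum and LIF on gelatin or on feeder cells, and both the E14 and the KO line came from another laboratory. The number of KO clones was not given in the sources used here, so the genotype and the line cannot be told apart. H3K4me3 and H3K27me3 lists were available for WT and KO mESC and for WT and KO EBs of each week, with H3K9me3, Oct4, Sox2 and Nanog lists of WT and KO mESC and a Uhrf1 list of WT mESC. With 1 library in each group there is no replicate spread to set a difference against, and no p-value is given. Every interval below is a 95% interval, Wilson for a share and Newcombe for a difference of shares, and covers counting error over domains or sites only.

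H3K4me3 is placed at promoters by the SET1 and MLL methyltransferases, whose CXXC partners bind unmethylated CpG dinucleotides, and it is found at the starts of most housekeeping genes. In stem cells many developmental genes carry H3K4me3 together with H3K27me3, the mark laid down by Polycomb repressive complex 2, and such promoters are called bivalent. Uhrf1 recruits the maintenance DNA methyltransferase Dnmt1 to newly replicated DNA, whereas Oct4, Sox2 and Nanog are transcription factors that hold stem cells in the pluripotent state.

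6 sequences show the kinds of start and site the results turn on. All were read from NCBIM37 (mm9), 5′ to 3′ on the strand named, in lower case with the motif found, read on either strand, in capitals. The promoters are the 250 bases before the annotated start and hold no annotated exon. The start of Nanog, a pluripotency factor, lacked H3K4me3 at week 1 of both genotypes and is shown (chr6:122657257-122657506, + strand) with the composite Sox-Oct motif TTGTNATGC, which lay by a WT Oct4 summit 63 bp upstream of the start.

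Nanog: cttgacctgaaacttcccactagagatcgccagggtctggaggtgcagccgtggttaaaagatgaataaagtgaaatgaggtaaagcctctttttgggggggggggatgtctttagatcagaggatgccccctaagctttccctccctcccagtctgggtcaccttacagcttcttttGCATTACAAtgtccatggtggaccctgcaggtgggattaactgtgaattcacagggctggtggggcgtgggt

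Klf2, a Krüppel-like pluripotency factor, kept its start call in every list and had the most factor summits of any active promoter domain. Its promoter (chr8:74842682-74842931, + strand) is rich in CpG and held the Sp1 box GGGCGG. Ccnl1, which encodes a cyclin involved in splicing, stands for the promoters present in all lists (chr3:65762172-65762421, - strand). The Ccnl1 promoter held Sp1 boxes and a KO Sox2 summit 66 bp upstream of the start that had no WT partner.

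Klf2: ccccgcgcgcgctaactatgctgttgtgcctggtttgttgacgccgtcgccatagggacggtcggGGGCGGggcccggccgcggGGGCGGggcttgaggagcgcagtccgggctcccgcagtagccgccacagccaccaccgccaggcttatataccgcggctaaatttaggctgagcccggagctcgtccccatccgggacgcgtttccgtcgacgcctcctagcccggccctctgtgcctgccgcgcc

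Ccnl1: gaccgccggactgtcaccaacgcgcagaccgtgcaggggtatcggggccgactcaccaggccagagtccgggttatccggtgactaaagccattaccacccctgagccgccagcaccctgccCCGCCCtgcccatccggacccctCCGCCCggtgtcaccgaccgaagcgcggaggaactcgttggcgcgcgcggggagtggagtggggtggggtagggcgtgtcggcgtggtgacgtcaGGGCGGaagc

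Osm, the cytokine oncostatin M of the LIF family, stands for the promoters absent from all 3 WT EB lists and present in KO mESC (chr11:4136173-4136422, + strand, with the CCAAT box). Npas1, a neuronal bHLH-PAS transcription factor, stands for those that carried H3K27me3 in place of H3K4me3 in EBs (chr7:17062130-17062379, - strand, with the Sp1 box GGGCGG and the YY1 motif AAGATGGCG). The bases within 50 bp of a WT Oct4 summit in the domain of B3gnt7, a glycosyltransferase gene, show a site far from a start, with the octamer ATGCAAAT and the Sox core ACAANG (chr1:88207642-88207742, + strand).

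Osm: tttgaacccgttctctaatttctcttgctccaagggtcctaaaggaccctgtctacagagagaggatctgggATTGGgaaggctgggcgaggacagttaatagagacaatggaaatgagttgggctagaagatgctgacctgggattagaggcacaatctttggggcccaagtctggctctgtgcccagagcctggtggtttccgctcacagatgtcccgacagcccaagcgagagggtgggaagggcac

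Npas1: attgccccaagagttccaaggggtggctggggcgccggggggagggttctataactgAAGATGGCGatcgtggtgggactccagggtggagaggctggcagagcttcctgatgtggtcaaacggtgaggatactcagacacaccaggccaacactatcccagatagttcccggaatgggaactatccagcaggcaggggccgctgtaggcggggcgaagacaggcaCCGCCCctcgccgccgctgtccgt

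B3gnt7 site: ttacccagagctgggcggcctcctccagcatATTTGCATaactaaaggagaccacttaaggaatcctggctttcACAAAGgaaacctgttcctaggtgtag

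The active promoter domains had a median length of 11700 bp (1300 to 29900 bp) and a median mean read count of 16.1 per bin of 1300 bp (4.23 to 109). For comparison, 2 other classes shorter than 30 kb were taken from the same list. The 3039 bivalent promoter domains (19.9%) overlapped WT H3K27me3 near a start, with a median length of 9100 bp and a median mean count of 12.3 per bin. The 3679 distal domains (24.1%) had neither H3K27me3 nor a coding start, with a median length of 5200 bp and a median mean count of 12.0 per bin. The median active promoter domain thus stood at percentile 68.7 of mean count within the list, against 40.8 for bivalent promoter domains and 38.3 for distal domains. Since mean count and length differed between the classes, retention is also given within groups of equal mean count or length.

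The start lay inside the domain in 5026 of the 5173 domains and outside it in 147. Most domains held 1 coding start (3950, 76.4%), 1044 held 2 (20.2%), and 179 held 3 or more (3.46%), with at most 9. A divergent pair of genes with starts within 1000 bp of each other was found in 435 domains (8.41%). In all, the domains lay by the starts of 6627 of 22367 coding genes. At the limit of distance, the domain of Aldh8a1, an aldehyde dehydrogenase gene, ended 1996 bp from the start (chr10:21091201-21095100) and was a member, whereas a domain 2004 bp from a start was not (chr5:130551201-130557700). At the limit of length, 86 members were 29900 bp long, among them the domain of Fam178b, Cox5b and Actr1b, and 65 domains of 31200 bp, among them that of Srgap2 and Fam72a, lay just outside. A further 902 domains of 30 kb or longer near a start and without H3K27me3 were left out by length.

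Members were unevenly spread over the chromosomes. They made up 14.8% of the 889 domains on chromosome 8 and 15.0% of the 1192 on chromosome 11, against 30.3% (chromosome 6) to 44.8% (chromosome 7) on the other autosomes and 63.9% of the 427 on the X chromosome. The share of H3K4me3 domains that overlapped WT mESC H3K27me3 moved the other way, at 55.9% on chromosome 8, 51.0% on chromosome 11 and 14.8% on the X chromosome. The cause of the chromosome differences was not tested. Without chromosomes 8 and 11, 92.9% of the remaining members (92.1 to 93.6%) were kept in KO mESC, compared with 92.7% over all chromosomes.

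To ask how stable these promoters were without Uhrf1, a domain was called kept where it shared at least 1 bp with an H3K4me3 domain of another list. In KO mESC, 4797 of the 5173 active promoter domains were kept (92.7%, 91.99 to 93.4%), against 73.0% of all 15272 WT mESC domains. Bivalent promoter domains were kept in 74.6% of cases and distal domains in 51.5%. The active promoter share was thus higher by 18.1 points than the bivalent share (16.4 to 19.8) and by 41.2 points than the distal share (39.4 to 42.9). Within 5 groups of equal mean count, the difference from bivalent domains was 7.64 points (6.31 to 8.97) and that from distal domains 32.5 points (30.6 to 34.5). The single groups gave 2.76 (highest mean count) to 17.5 points (lowest) for bivalent domains, and 18.7 to 42.7 points for distal domains. Within 5 groups of equal length the differences were 13.5 points (12.02 to 15.01) and 19.7 points (17.7 to 21.6).

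In WT EBs, 4970 active promoter domains were kept at week 1 (96.1%, 95.5 to 96.6%, against 76.4% of all domains), 5033 at week 2 (97.3%, 96.8 to 97.7%, against 83.7%) and 5094 at week 3 (98.5%, 98.1 to 98.8%, against 86.1%). The WT EB lists held 18672, 39898 and 27350 domains, and the KO mESC list held 11509. When each EB list was limited to the 11509 domains of highest score, the shares were 86.2%, 74.9% and 83.2%, so that the order of the weeks, and of the WT EBs and KO mESC, depended on list length. With at least 50% of the WT mESC domain covered the shares were 59.1%, 77.2% and 78.5%, where the partner domains of EBs were shorter than those of mESC (median 6400 bp at week 1 and 8400 bp at weeks 2 and 3). Bivalent promoter domains were kept in 93.2%, 93.4% and 95.9% of cases and distal domains in 40.4%, 63.1% and 67.8%. At week 1 the active and bivalent promoters differed by 2.89 points (1.87 to 3.96), but by -0.0326 points (-0.845 to 0.780) within groups of equal mean count and 1.86 points (0.89997 to 2.82) within groups of equal length. At week 3 the difference was 2.55 points (1.81 to 3.37), 0.641 points (0.102 to 1.18) within groups of equal mean count, 1.99 points (1.27 to 2.71) within groups of equal length, and 13.3 points with lists of equal number. The difference from distal domains within groups of equal length was 39.2 points (36.8 to 41.6) at week 1 and 15.7 points (14.1 to 17.3) at week 3.

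In KO EBs, 4791 active promoter domains were kept at week 1 (92.6%, 91.9 to 93.3%, against 69.2% of all domains), 5057 at week 2 (97.8%, 97.3 to 98.1%, against 86.1%) and 5096 at week 3 (98.5%, 98.1 to 98.8%, against 88.9%). The KO EB lists held 19041, 32702 and 28789 domains. In the full lists the share at KO week 1 was the lowest of the 6 EB shares, whereas with the 11509 domains of highest score in each list the KO shares were 85.7%, 78.4% and 83.5% and WT week 2 was lowest. In the full lists of week 1, 194 domains were present in the WT list alone and 15 in the KO list alone. Week 2 had 37 domains in WT alone and 61 in KO alone, and week 3 had 31 and 33. The difference from bivalent domains was 10.5 points (8.999 to 12.1) at KO week 1, and 3.13 points (1.94 to 4.33) within groups of equal mean count.

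**Figure D1:**
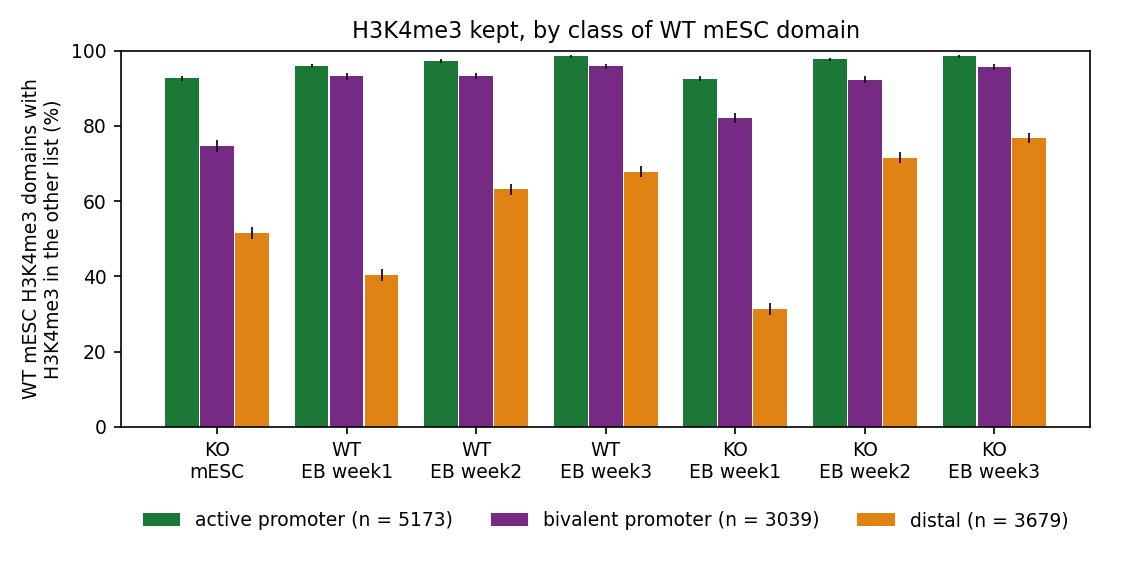
The bars give the percentage of WT mESC H3K4me3 domains of each class (active promoter, bivalent promoter, distal) kept in each of the 7 other H3K4me3 lists, with 95% intervals as error bars. Active promoter domains were kept in 92.6% to 98.5% of cases, and the distal bars are lowest in every list.

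Over all 7 other H3K4me3 lists, 4603 active promoter domains were present in every list (89.0%, 88.1 to 89.8%), against 61.0% of all domains. With at least 50% of the domain covered in each list the share was 31.6%, and with lists of equal number 63.3%. It was 67.6% by any overlap for bivalent promoter domains and 22.7% for distal domains. A further 264 domains were present in 6 of the 7 lists, and 32 (0.619%) were in none of them. Among the members present in all 7, the 8 of highest score were all 29900 bp long. The score sums over bins and so favours long domains, and 29900 bp was the greatest length among members. These 8 included the domains of Ccnl1, of Cd9 (a tetraspanin), of Hras1 and Rnh1 (a Ras GTPase and the ribonuclease inhibitor), and of the 7-gene cluster from Plcb3 to Trpt1. The mean counts of these 4 domains were 17.5, 12.3, 14.6 and 21.3 per bin in WT mESC. The partner domains of active promoters also ranked high within their own lists, with a median percentile of mean count of 70.4 at WT week 1, 83.8 at week 2, 78.0 at week 3 and 58.5 in KO mESC.

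Retention differed with the strength of the domain in WT mESC. In KO mESC the kept share was 74.8% in the fifth of active promoter domains of lowest mean count, 93.3%, 97.0% and 98.6% in the next groups, and 99.9% in the highest. At WT week 1 the lowest group was kept in 87.1% of cases and the highest in 99.4%, and at KO week 1 in 77.1% and 98.6%. Domains of 1300 to 5200 bp were kept in KO mESC in 72.6% of 698 cases, and those of 19500 to 29900 bp in 98.9% of 1038 cases. In each of these 3 lists the group of lowest mean count thus held most of the absences.

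CpG content of the start also went with retention. In the 300-bp window from 250 bp before to 50 bp after the start, the median ratio of observed to expected CpG was 0.762 over 6623 starts of active promoter domains, 0.712 at bivalent promoters, 0.190 at coding starts without H3K4me3 and 0.534 at all 22362 coding starts with a window. For retention, each domain was grouped by its most CpG-rich start. At week 1 of WT EBs, 98.9% of the 3880 domains with a ratio above 0.6 were kept and 87.6% of the 1290 others, a difference of 11.3 points (9.59 to 13.3). Within groups of equal mean count it was 7.89 points (6.41 to 9.38). In KO mESC the shares were 96.0% and 82.9%, a difference of 13.1 points (11.1 to 15.4), and 7.36 points (5.77 to 8.94) within groups. The largest gap of the 7 lists was at KO week 1 (97.1% and 79.2%, 17.9 points), and the smallest at KO week 3 (99.5% and 95.7%). Domains without a CpG-rich start were thus kept less often, although most of them were kept in every list. They were also shorter (median 9100 bp, against 13000 bp), and the CpG difference was not compared within groups of equal length.

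**Figure D2:**
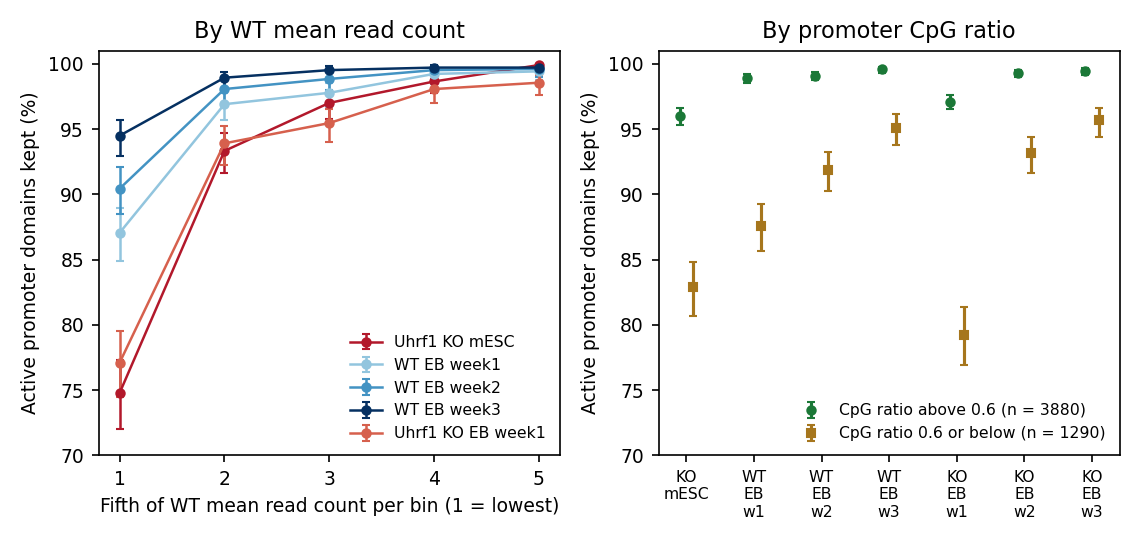
The left plot gives the percentage of active promoter domains kept (y axis from 70) in 5 lists for 5 equal groups of WT mESC mean read count. The right plot gives the percentage kept in 7 lists for domains whose most CpG-rich start had a CpG ratio above 0.6 or not. In KO mESC the left line goes from 74.8% to 99.9%, and domains without a CpG-rich start lie below the others in all 7 lists.

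376 active promoter domains had no H3K4me3 partner in KO mESC. They had a median length of 5200 bp, a median mean count of 10.5 per bin (percentile 25.2) and a median CpG ratio of 0.526, whereas kept domains had 11700 bp, 16.6 per bin and percentile 71.3. Of the 376, 4 lay within 2 kb and 39 within 10 kb of a KO domain, and the median gap to the nearest one was 31200 bp. 162 of them (3.13% of all members) were present in all 6 EB lists, WT and KO.

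The 8 of highest score among these 376 were the domains of Gm11733, of Gng7, Diras1 and Slc39a3, and of Mdfi, Nupr1, Ptprf, Dcaf15, Gpsm1 and Tfdp1. They encode, among others, a G protein gamma subunit (Gng7), an inhibitor of MyoD-family factors (Mdfi), a stress-response protein (Nupr1), a receptor tyrosine phosphatase (Ptprf), a substrate receptor of a ubiquitin ligase (Dcaf15) and the dimerization partner of E2F (Tfdp1). They were 18200 to 28600 bp long with mean counts of 7.12 (Ptprf) to 11.1 (Dcaf15) per bin, hence weak. The ranking by score, which sums over bins, favours long domains, whereas the median length of the 376 was 5200 bp. All 8 were present at weeks 2 and 3 of both genotypes. At week 1 that of Nupr1 was absent in WT and that of Gm11733 in KO. The domain of Ptprf lies at chr4:117942501-117965900 and that of Tfdp1 at chr8:13331501-13349700.

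Domains absent from all 3 WT EB lists were taken next. 60 active promoter domains met this (1.16%, 0.902 to 1.49%), against 10.9% of all domains, 2.44% of bivalent promoter domains and 25.1% of distal domains. With lists of equal number the share was 8.76%, and by coverage of at least 50% it was 13.0%, so the 60 are those with no overlap at all in the full lists. The corresponding number in KO EBs was 62. Of the 60, 15 were present in KO mESC, against 4797 of all 5173 members, and 21 in at least 1 KO EB list. Most of the 60 thus had no call in undifferentiated KO cells either, and loss on differentiation is not shown. They were short (median 3900 bp) and weak (median percentile 24.4), with a median CpG ratio of 0.294 over 63 starts. They comprised 4 of the 6 member domains at olfactory receptor genes, the single one at a vomeronasal receptor gene and 5 of the 273 on the X chromosome.

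Among these 60, the 8 of highest score were the domains of Osm, C330005M16Rik, Spn, Pla2g3, Ash1l, Hoga1 with 4933411K16Rik, Chadl and Il17b. Spn encodes the leukocyte sialophorin CD43, Pla2g3 a secreted phospholipase, Ash1l a histone methyltransferase, Hoga1 a mitochondrial aldolase and Il17b a cytokine. The Osm domain (chr11:4130101-4148300) had a mean count of 9.11 per bin in WT mESC and was present in KO mESC and at KO weeks 2 and 3. The Ash1l domain (chr3:88766601-88784800, 6.77 per bin) and the Spn domain (chr7:134280901-134295200, 7.68 per bin) were present in KO mESC and in none of the 6 EB lists. The domains of C330005M16Rik and Pla2g3 were absent from all 7 lists. Chadl was present at KO weeks 2 and 3, Il17b at KO week 3, and Hoga1 in KO mESC and at KO week 3.

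H3K27me3 was found at 23 of the 60 in at least 1 WT EB week (38.3%, against 20.3% of all active promoter domains) and at 11 in at least 2 (18.3%, against 6.75%). At 8 of the 11, named by score, the genes were C330005M16Rik, Foxn4, C1qa, Npas1, 1700123I01Rik, Dpp6, Cdhr1 and Trpm3. Foxn4, a forkhead factor of retinal progenitors, carried H3K27me3 in all 3 weeks of both genotypes. Cdhr1, a photoreceptor cadherin, carried it in all 3 WT weeks and in no KO week. Dpp6, an auxiliary subunit of potassium channels, carried it in all 3 WT weeks and at KO week 2, and kept H3K4me3 in KO mESC. Npas1 and C1qa, the latter a complement subunit expressed by macrophages, carried it at WT weeks 1 and 3. These domains were 2600 to 16900 bp long, with mean counts of 7.36 (C1qa) to 15.8 (Cdhr1) per bin in WT mESC.

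The genes were next followed by their starts, since a domain can overlap another while the start itself lies outside. Of the 6627 coding genes, 6209 had H3K4me3 within 2 kb of the start at WT week 1 (93.7%), 6322 at week 2 (95.4%) and 6404 at week 3 (96.6%). In KO mESC the number was 6090 (91.9%), and in KO EBs 5938 (89.6%), 6326 (95.5%) and 6405 (96.7%). Over the weeks, 6150 genes had the mark in all 3 WT lists (92.8%) and 173 in none. H3K4me3 was absent at week 1 and present at weeks 2 and 3 at 131 genes in WT and at 375 in KO, and absent at weeks 1 and 2 and present at week 3 at 83 and 112. The mark was present at week 1 alone at 9 genes in WT and 8 in KO. These counts rest on full lists, which are shortest at week 1 in both genotypes. With the 11509 domains of highest score in each list, 5623, 4914 and 5483 starts had the mark over the WT weeks and 5508, 5124 and 5503 over the KO weeks, so that week 1 was then no longer the lowest.

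Pluripotency genes are expressed in mESC and silenced in most differentiated cells. Of 35 annotated genes of the list, 11 lay in active promoter domains: Nanog, Klf2, Dppa2, Dppa4, Utf1, Nr0b1, Gdf3, L1td1, Fbxo15, Lefty1 and Nodal. Others lay elsewhere, with 9 in bivalent promoter domains, 8 in domains of 30 kb or longer without H3K27me3, 5 in such long domains with H3K27me3 (among them Pou5f1, which encodes Oct4, and Sox2) and 2 in none. Starts of 4 of the 11 carried H3K4me3 at WT week 1 (36.4%, 15.2 to 64.6%), those of Klf2, L1td1, Lefty1 and Nodal. At week 2 the number was 8 and at week 3 it was 11. In KO the numbers were 10 in mESC, 2 at week 1 (Klf2 and L1td1), 10 at week 2 and 11 at week 3.

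These numbers depended in part on list length. With the 18672 domains of highest score in each WT EB list, 4, 8 and 11 starts were present, and with the 18672 of highest mean count 4, 5 and 10. With the 11509 of highest score, as many as in KO mESC, they numbered 3, 7 and 8, and with the 11509 of highest mean count 2, 4 and 4. In the KO EB lists the 18672 of highest score gave 2, 10 and 11 starts, and the 18672 of highest mean count 2, 7 and 11. The 11509 of highest score gave 1, 8 and 9 in KO, and the 11509 of highest mean count 0, 3 and 9. The presence of all 11 starts at week 3 thus depended on list length, while week 1 had the fewest in each of these lists. By overlap of the whole domain rather than the start, 8 of the 11 were present at WT week 1, 8 at WT week 2 and 11 at WT week 3. In bulk samples a mark on fewer cells and a weaker mark on all cells cannot be told apart.

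Nanog had a mean count of 29.9 per bin in WT mESC (percentile 98.2 of the list) and 18.5 in KO mESC (percentile 89.0). At week 1 its start had no domain, and the nearest lay 3906 bp away in WT and 4556 bp away in KO. At WT weeks 2 and 3 the start was again within a domain, with mean counts of 11.3 and 12.6 (percentiles 58.7 and 57.3). In KO the values were 9.44 and 16.9 (percentiles 60.4 and 81.1). The rank within the list was thus below that of mESC at each week with a domain. Gdf3, a TGF-beta ligand beside Nanog, went from 31.1 (percentile 98.6) in WT mESC to no domain at week 1 and to 14.8 and 14.6 at weeks 2 and 3.

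Dppa2 and Dppa4 are neighbours whose products act together in early embryos. Dppa4 had 28.9 per bin in WT mESC (percentile 97.8) and 14.9 in KO mESC, and Dppa2 had 15.7 and 9.77. At WT week 1 the nearest H3K4me3 domain lay 706552 bp from the Dppa4 start and 679810 bp from the Dppa2 start, and at week 2 it lay 194152 and 167410 bp away. At WT week 3 both starts were in domains, with 12.6 per bin for Dppa4 and 11.9 for Dppa2. In the full KO list of week 2 both were present, with 11.2 and 7.80 per bin. Nr0b1, which encodes the orphan receptor Dax1, was absent at WT weeks 1 and 2, in KO mESC and at KO weeks 1 and 2, and had the smallest WT mESC value of the 11 (11.2 per bin).

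Utf1, a chromatin factor of stem cells, had 22.2 per bin in WT mESC, no domain at the start at week 1 (nearest 5112 bp in WT), and 18.5 and 14.1 at WT weeks 2 and 3. Fbxo15, an Oct4 target that encodes an F-box protein, had 23.7 in WT mESC, none at week 1 and 8.66 and 15.1 at WT weeks 2 and 3. Both genes thus shared with Nanog the absence at week 1 and the presence at week 3.

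Klf2 and L1td1 were present in all 8 lists. Klf2 had 11.8 per bin (percentile 36.8) in WT mESC and 5.19 (percentile 1.99) in KO mESC, and 8.95, 7.38 and 14.8 over the WT weeks. L1td1, an RNA-binding protein of stem cells, had 28.6 in WT mESC, 15.6 at WT week 1 and 6 (percentile 4.39) at KO week 1. Lefty1 and Nodal, an inhibitor and a ligand of the Nodal pathway, were present in every list but KO week 1, where the nearest domains lay 4597 and 4169 bp from their starts. Lefty1 had 17.5 per bin in WT mESC and Nodal 13.3, and in KO mESC they lay in domains of 66300 and 48100 bp.

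H3K27me3 reached some of these starts in EBs. In WT it was found at Utf1, Lefty1 and Nodal at weeks 1 and 3 and at Utf1 and Nr0b1 at week 2. In KO it was found at none of the 11 in mESC, at 3 in week 1, at 2 in week 2 and at 1 in week 3. Over all 6627 member genes, H3K27me3 lay at 7.62%, 5.93% and 8.47% of the starts over the WT weeks, and at 2.64% in KO mESC and 7.38%, 6.29% and 2.94% over the KO weeks. The start of Nanog carried no H3K27me3 domain in any WT week.

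**Figure D3:**
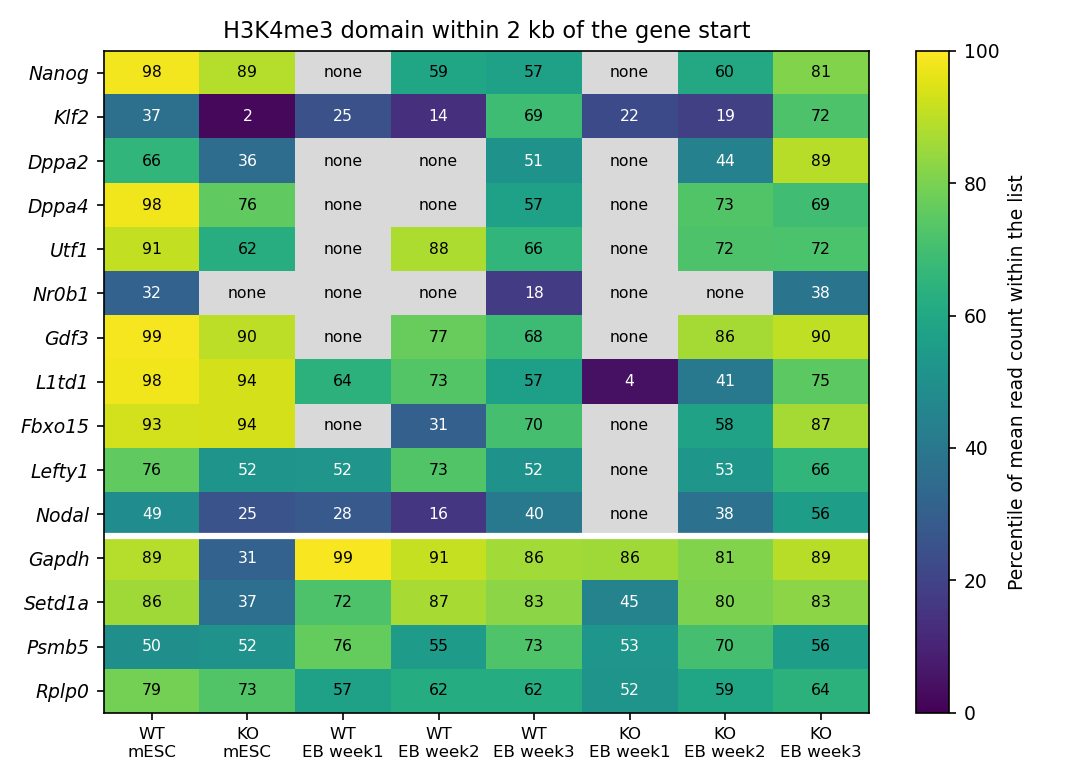
The heat map gives, for 11 pluripotency genes in active promoter domains and 4 housekeeping genes for comparison, the percentile of mean read count within each of 8 H3K4me3 lists of the domain at the start, with grey where no domain lay within 2 kb. Nanog went from percentile 98.2 in WT mESC to no domain at week 1 and percentile 57.3 at WT week 3, and the 4 housekeeping genes had a domain in every list.

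Housekeeping genes with starts in active promoter domains had the mark in nearly every full list. Over all 6627 member genes the share per list was 89.6% (KO week 1) to 96.7% (KO week 3), so the small sets cannot be told from it. All 42 ribosomal protein genes of this class (of 82 annotated), 21 subunits of respiratory complex I (of 36), 18 replication genes (of 30, such as Mcm2 and Cdc45) and 12 mitosis genes (of 21, such as Plk1, Cdk1 and Ccnb1) had H3K4me3 at the start in all 7 other lists. The same held for the 9 of 13 subunits of the H3K4 methyltransferase complexes in this class, among them Setd1a, Mll1, Wdr5 and Cxxc1, for 5 of 18 Polycomb genes (Eed, Aebp2, Ring1, Rnf2 and L3mbtl2) and for Dnmt1, Setdb1 and Ehmt2 of the 14 DNA methylation and heterochromatin genes. Of 17 proteasome genes in this class (of 39), 15 or 16 had the mark in each list. The exceptions were Psmb11, the thymus-specific subunit, absent from all 7, and Psma8, the testis-specific subunit, absent at WT weeks 1 and 2 and KO week 1. Of 9 glycolysis genes (of 19), Ldha lacked it at KO week 1 alone. Gapdh, one of these 9, had 21.3 per bin in WT mESC and 33.7, 20.3 and 19.4 over the WT weeks. These counts depended on list length. With the 11509 domains of highest score at WT week 2, the mark was at 36 of 42 ribosomal protein and 19 of 21 complex I starts. It was at 16 of 18 replication, 11 of 17 proteasome, 12 of 12 mitosis and 9 of 9 methyltransferase starts, against 4914 of all 6627.

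Genes of other states were few or missing among active promoters. Of 26 germline genes 2 were members: Sycp3, a synaptonemal complex protein, whose start lacked H3K4me3 at WT weeks 1 and 2 and KO week 1, and Tdrd9, whose start lacked it in all 7 other lists. None of 9 genes of the 2-cell stage, of 12 fibroblast markers or of 19 lineage regulators was a member. Of the fibroblast markers 7 lay in bivalent promoter domains and 5 in none (the feeder cells on which mESC may be grown are fibroblasts). Of the lineage regulators 13 were bivalent. Of 10 mESC markers 3 were members. Uhrf1 itself started in a domain of 76700 bp in WT mESC, was not a member, and had H3K4me3 at the start in all 7 other lists, so the list does not check the deletion.

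The active promoters were free of H3K27me3 in WT mESC by the rule, and H3K27me3 domains of the other lists were compared with them. At WT week 1, 517 overlapped H3K27me3 (9.99%, against 24.8% of all domains), at week 2 385 (7.44%, against 26.7%) and at week 3 601 (11.6%, against 34.5%). In KO mESC 185 did (3.58%, against 8.27%), in a list of 722 domains that was far shorter than the 8161 of WT mESC. At KO weeks 1, 2 and 3 the numbers were 552 (10.7%, against 24.6%), 421 (8.14%, against 25.8%) and 206 (3.98%, against 21.4%). With at least 50% of the domain covered the WT shares were 4.37%, 5.08% and 6.24%. All 7 shares by any overlap lay below the background, which includes bivalent domains chosen for H3K27me3. Against distal domains, which were also chosen without H3K27me3, the WT week 3 share was lower by 3.69 points (-5.15 to -2.24) and the WT week 1 share higher by 4.29 points (3.17 to 5.39). Within groups of equal length the difference was -3.38 points (-5.35 to -1.41) at week 3 and 1.54 points at week 1, with an interval that includes 0 (-0.127 to 3.20). At week 2 it was -4.65 points (-5.94 to -3.39), and -1.91 points (-3.45 to -0.365) within groups.

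Most active promoters (4125, 79.7%) carried H3K27me3 in no WT week, 699 in 1, 243 in 2 and 106 in 3. Of these 106, 95 had H3K4me3 in all 3 WT weeks, so they held both marks in the EB libraries. In KO EBs, 26 of the 106 carried H3K27me3 in all 3 weeks and 17 in none. At week 3, 121 domains overlapped H3K27me3 in both genotypes, 480 in WT alone and 85 in KO alone. The week 3 H3K27me3 list held 9488 domains in WT and 3722 in KO, covering 791 and 420 Mb, and the part of list size in this difference was not tested.

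In terms of states, 86.99% of active promoter domains held H3K4me3 alone at WT week 1, 9.09% held both marks, 0.909% held H3K27me3 alone and 3.02% held no mark. At WT week 3 both marks were found at 11.3%, and at KO week 3 at 3.81%. H3K27me3 alone was found at 47 domains at WT week 1 (0.909%), 21 at week 2 (0.406%) and 18 at week 3 (0.348%). For bivalent promoter domains, chosen for H3K27me3, the shares were 4.51%, 5.07% and 3.49%, and for distal domains 2.28%, 6.14% and 4.92%. Each call rests on an overlap of at least 1 bp with the domain, so a change of mark at the start itself is not shown. In KO EBs H3K27me3 alone was found at 134 active promoter domains at week 1 (2.59%), 35 at week 2 and 9 at week 3. At KO week 1 the share was 13.0% for bivalent promoter and 7.31% for distal domains. In KO mESC 6.82% held no mark.

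**Figure D4:**
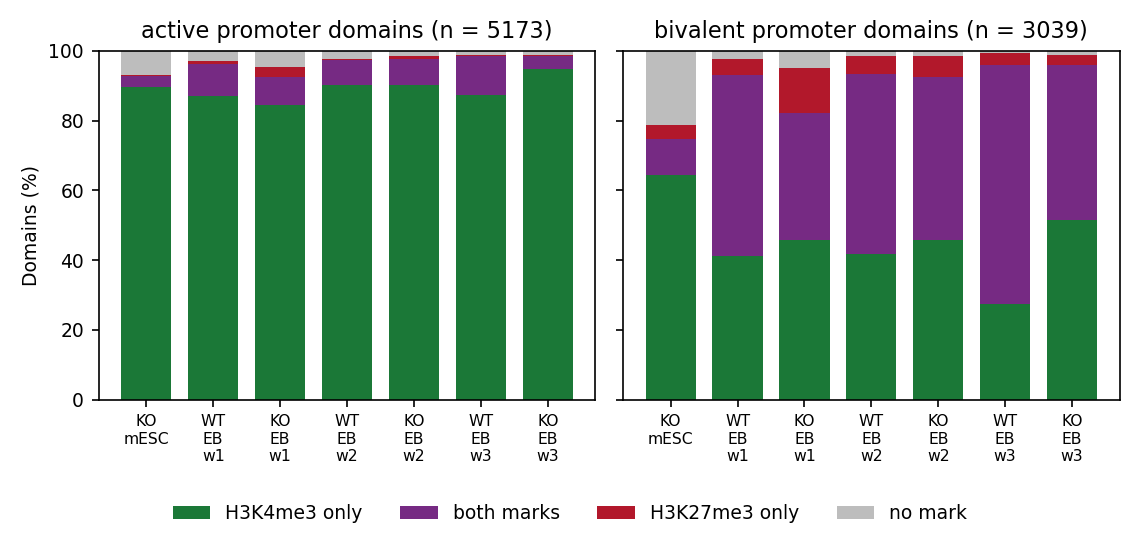
The stacked bars give the percentage of the 5173 active promoter and 3039 bivalent promoter domains that held H3K4me3 alone, both marks, H3K27me3 alone or no mark in each of 7 libraries. H3K4me3 alone was the most frequent state of active promoters in all 7, and both marks reached 11.3% at WT week 3.

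H3K9me3, a mark of heterochromatin, overlapped 719 active promoter domains in WT mESC (13.9%, against 29.1% of all domains) and 1846 in KO mESC (35.7%, against 44.0%). The KO list held 3118 domains and the WT list 11285, covering 1086 and 988 Mb with median lengths of 140400 and 37800 bp. Between domains with and without WT H3K9me3, the share kept in KO mESC differed by 1.33 points, with an interval that includes 0 (-0.793 to 3.06). Uhrf1 windows of 10 kb overlapped 51 active promoters (0.986%, 0.751 to 1.29%, against 2.97%). Of these 51, 90.2% were kept in KO mESC and of the others 92.8%, a difference of -2.56 points (-13.8 to 3.03), an interval too wide to show a difference of a few points.

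Factor sites were then placed on the active promoters. In WT mESC, 764 domains held an Oct4 summit (14.8%, against 21.7% of all domains), 515 a Sox2 summit (9.96%, against 14.5%) and 174 a Nanog summit (3.36%, against 6.26%). At least 1 of the factors was found at 930 (17.98%) and all 3 at 141 (2.73%). Distal domains held more, and the active promoter share was lower by 13.2 points for Oct4 (-15.0 to -11.5), and by 22.2 points (-24.8 to -19.7) within groups of equal length. The domains with most summits were those of Klf2 (12 summits), Epha2 (an ephrin receptor, 10), and Ddx58 (the RNA sensor RIG-I), the Hist1h1b histone cluster, Zfp219 and B3gnt7 (9 each). All 6 were kept in every list, except that of B3gnt7 at KO week 1.

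In KO mESC, 19 active promoters held an Oct4 summit (0.367%, against 0.930% of all domains), 2644 a Sox2 summit (51.1%, against 47.0%) and 644 a Nanog summit (12.4%, against 17.9%). The lists themselves differed in size, with 12898 WT and 576 KO Oct4 summits, 5190 and 20755 for Sox2, and 2390 and 10632 for Nanog. With the KO lists limited to the tallest 5190 Sox2 and 2390 Nanog summits, 9.67% of active promoters held Sox2 and 3.52% Nanog, close to the WT values of 9.96% and 3.36%. The higher KO Sox2 share was thus carried by KO summits outside the tallest 5190, which had at least 26 reads. WT Sox2 summits in active promoters had a median height of 19 reads. Read totals were not used, so heights cannot be set against each other between WT and KO. For distal domains the tallest Sox2 summits gave 19.6%, against 15.3% in WT.

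The 3561 KO Sox2 summits in active promoters comprised 373 within 100 bp of a WT Sox2 summit and 3188 without. The new ones had a median height of 15 reads and lay at a median of 305 bp from the start, with 58.1% within 500 bp. Those with a WT partner had a median height of 38 reads and a median distance of 2902 bp, with 23.1% within 500 bp. New KO Sox2 summits were found at 2500 active promoters (48.3%), at 41.4% of bivalent promoters and at 30.2% of distal domains. The difference from distal domains was 18.1 points (16.1 to 20.1), but 3.57 points (0.850 to 6.30) within groups of equal length. Per Mb of domain there were 47.6 new summits in active promoters, 47.1 in bivalent promoters and 54.6 in distal domains.

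The place of summits relative to the start differed between the factors. Of 1006 WT Oct4 summits in active promoters, 16.6% lay within 500 bp of a start, compared with 33.9% of 614 WT Sox2 summits and 4.10% of 195 WT Nanog summits. In KO the share was 54.4% of 3561 Sox2 summits and 7.41% of 837 Nanog summits. Most Oct4 and Nanog sites hence lay more than 500 bp from a start. At B3gnt7 the Oct4 summit shown above (116 reads) lay 7896 bp from the start. Per 250 bp of distance up to 5 kb, WT Oct4 summits were still most frequent nearest the start (10.7%), whereas 2.05% of WT Nanog summits lay there.

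**Figure D5:**
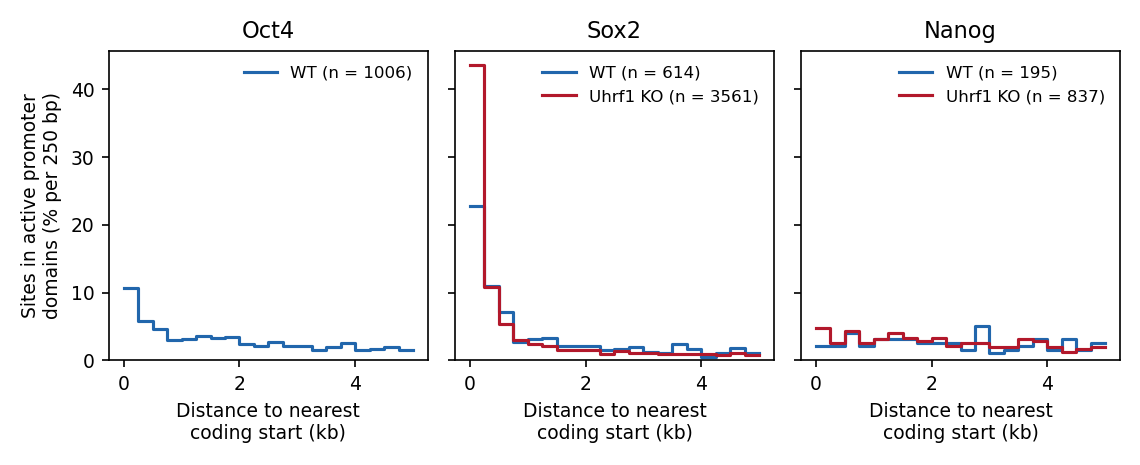
The lines give the percentage of factor summits in active promoter domains per 250 bp of distance to the nearest coding start, from 0 to 5 kb, for Oct4 in WT, and Sox2 and Nanog in WT and KO mESC. Within the first 250 bp lay 43.5% of KO Sox2 summits, 22.8% of WT Sox2 summits and 10.7% of WT Oct4 summits.

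Of the 1006 WT Oct4 summits, 16 were within 100 bp of a KO Oct4 summit (1.59%). A further 451 (44.8%) lacked KO Oct4 and had a KO Sox2 or Nanog summit with no WT counterpart, of which 203 had Sox2 alone, 131 Nanog alone and 117 both. At 195 (19.4%) a WT Sox2 or Nanog summit was kept, and 344 (34.2%) had no KO factor summit. The latter share was 38.3% in bivalent promoter domains, 30.7% in distal domains and 56.2% outside H3K4me3 domains. The share with a new KO Sox2 or Nanog summit was 38.3% in bivalent promoter and 44.9% in distal domains, so these values were not particular to active promoters. At the Nanog promoter shown above, the WT Oct4 summit at chr6:122657444 (116 reads) had WT Sox2 and KO Sox2 and Nanog summits within 100 bp and no KO Oct4 summit.

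Active promoters with a WT Oct4 summit were kept in KO mESC more often than those without, by 2.999 points (1.10 to 4.53), and at WT week 1 less often, by -2.31 points (-4.27 to -0.732). Within groups of equal mean count the differences were 2.38 and -2.59 points. At week 2 the difference was -1.43 points, and at week 3 it was 0.103 points (-1.06 to 0.857). In the full lists, domains with Oct4 were therefore less often kept at WT weeks 1 and 2 and not distinguishable from the others at week 3. These differences were not compared within groups of equal length, nor, for the EBs, in lists of equal number.

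Motifs were searched by exact letters on both strands, as a description of the windows. Windows at summits and at coding starts were not matched for base composition or for distance to a start. In the same windows of 50 bp either side of the summit, the Sox core ACAANG was found at 28.8% of WT Oct4 summits in active promoters, 32.4% of WT Sox2 summits, 39.9% of KO Sox2 summits with a WT partner and 24.2% of new KO Sox2 summits, against 12.9% of windows at all coding starts. The octamer ATGCAAAT was found at 8.35%, 3.58%, 5.90% and 0.941% of these summits, against 0.389% at starts. The composite motif TTGTNATGC was found at 4.67%, 4.07%, 5.90% and 0.816%, against 0.179% at starts, and can share bases with the Sox core. The Sp1 box GGGCGG was found at 29.0% of new KO Sox2 summits, 16.6% of WT Sox2 summits and 42.8% of the starts of active promoters.

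In the 300-bp start windows of active promoter genes, the Sp1 box was found at 63.9%, against 43.4% of all coding starts, and the TATA box TATAAA at 6.27%, against 13.4%. The CCAAT box was found at 39.9% and 37.9%. The ETS motif CCGGAAGT (8.05% and 4.70%), the NRF1 motif GCGCATGCG (3.79% and 2.097%) and the YY1 motif AAGATGGCG (3.095% and 1.84%) were each more frequent at active promoters than over all starts. They were not particular to this class: at the 4049 starts by domains of 30 kb or longer the ETS motif was found at 8.10%, NRF1 at 3.09%, YY1 at 3.46% and the Sp1 box at 58.2%. At the 3454 starts by bivalent promoter domains the Sp1 box was found at 60.9%, ETS at 3.65%, NRF1 at 2.08% and YY1 at 0.926%. At the 63 starts by domains absent from all 3 WT EB lists, the Sp1 box was found at 26.98%. The 42 ribosomal protein starts held the ETS motif at 19.0%. Of the 11 pluripotency starts, 2 held the Sp1 box and 2 the composite Sox-Oct motif, and their median CpG ratio was 0.329, against 0.827 at the ribosomal protein starts.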

How the data were processed

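Of 33 samples (17 WT, 16 KO), 25 had a list of enriched regions and 8 were inputs, not used here. Per the methods of the study, the authors mapped reads to mm9 with Bowtie2 2.1.0, keeping a single alignment per read, and called histone domains against input with RSEG, factor summits with MACS and Uhrf1 regions as 10 kb windows enriched over input. The signal that the authors deposited for a histone domain is its average read count in a bin, and the deposited score sums the posteriors of the bins. The signal of a summit, also from the authors, is a whole number of reads. The Uhrf1 list was deposited with coordinates only. Scaling of the mean counts to depth is not stated, the bin was 1300 bp for mESC H3K4me3 and 350 to 400 bp for EB H3K4me3, and read totals were not used here, so mean counts were ranked within a list and not tested between lists.

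Samples were grouped by the labelled genotype, stage and target, with 1 library a group. An overlap was any shared stretch of 1 bp or more for domains, and a distance within 100 bp for summits. No list reached past a chromosome end of NCBIM37. Gene starts came from GENCODE vM1. Python 3.11, numpy 2.4.6 and matplotlib 3.10.9 were used. Differences within 5 equal groups of mean count or length were weighted by the active promoter domains in each, with a normal 95% interval. The overlap and interval calculations were tested on simulated data. Named genes were those of gene lists written by hand, the 8 domains of highest score in each pattern, the 6 with most WT factor summits, and those at the limits of the rule. The members and lists were chosen with earlier results of these data known. Alternatives were coverage of at least 50%, lists of equal number, groups of equal mean count, domains with the start inside, and a summit distance of 500 bp. Others, chosen after seeing the data, are named with the limits.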

Additional observations from a re-analysis of the deposited data

How the results depend on the processing

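No paired analysis was possible because each group holds 1 library and the labels give no replicate numbers, and weeks are conditions, not replicates. The week 3 difference by Oct4 changed sign within equal mean count (-0.0291 points) and with a summit distance of 500 bp (-0.02497), and the week 1 difference from bivalent domains within equal mean count (-0.0326). Where a domain had to be covered to at least 50%, it was kept in 86.0% of cases in KO mESC and 59.1%, 77.2% and 78.5% at WT weeks 1 to 3, with 31.6% in all 7 lists and 13.0% absent from all WT EB lists. The difference from bivalent domains was then 20.3 points in KO mESC and 8.21 at week 3, that from distal domains 38.6 at week 3, and H3K27me3 covered 4.37%, 5.08% and 6.24%. With lists of equal number by score, the kept shares were 86.2%, 74.9% and 83.2% over the weeks, 63.3% in all lists, 8.76% absent, and week 3 differences 13.3 and 58.8 points. With the start inside the domain, 93.8% were kept in KO mESC, 96.9%, 97.9% and 98.9% over the weeks, 90.4% in all lists, and 0.796% absent. Within equal mean count, the differences from bivalent and distal domains were 7.64 and 32.5 points in KO mESC and 0.641 and 25.0005 at week 3. The following were chosen after seeing the data. The CpG differences within equal mean count were 7.36 (KO mESC) and 7.89 points (week 1). WT pluripotency starts numbered 8 at week 1 by domain overlap and 5 at week 2 in lists of equal number by mean count. In the 11509 domains of highest mean count they numbered 2, 4 and 4 in WT and 0, 3 and 9 in KO. The KO EB shares with lists of equal number by score were 85.7%, 78.4% and 83.5%. KO Sox2 and Nanog shares were 9.67% and 3.52% with the tallest summits, and the new Sox2 difference 3.57 points within equal length. Within equal length the differences from bivalent and distal domains were 13.5 and 19.7 points in KO mESC, that from distal domains 15.7 points at week 3 and -22.2 points for Oct4, and those of H3K27me3 from distal domains 1.54 and -1.91 points at weeks 1 and 2. Without chromosomes 8 and 11, the distal difference in KO mESC was 39.3 points and the WT Sox2 share 9.01%. The other 16 results without these chromosomes moved by less than their interval, as did the 4 with a summit distance of 500 bp. The causes of these shifts were not tested. Intervals cover counting over domains within single libraries, so a difference between cultures or preparations is not covered.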
